A study of Mus musculus with 12 samples.

Results

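The bulge is the part of the hair follicle's outer root sheath that houses slow-cycling hair follicle stem cells, and 4 arrays of sorted bulge cells were set against 4 arrays of total skin keratinocytes. These 8 arrays of the 12 in the series were chosen by their labels alone, and the hair germ arrays were not used. Cells came from the back skin of female mice aged 72 to 74 days, of mixed C57BL/6 and CD1 background and untreated, at the second passage of the follicles out of rest (telogen) into growth (anagen). All fractions were sorted with the Rosa26-YFP reporter, P-cadherin and CD34. The bulge arrays were cKO bulge of set 1 (labelled quiescent), cKO bulge of set 2 (labelled aberrantly quiescent), Het bulge of set 1 (labelled quiescent) and Het bulge of set 2 (labelled activated), with 1 array each. The total keratinocyte arrays were cKO set 1, cKO set 2, Het set 1 and Het set 2, again with 1 array each, and held the whole YFP-positive keratinocyte population of the skin. cKO (TßRII-cKO) and Het (TßRII-Het) name a conditional knockout and a heterozygous state of Tgfbr2, the gene of the type II TGF-beta receptor. The sources used here give no Cre driver, no number of mice per array and no statement that bulge and total keratinocytes of a set were sorted from shared mice. All p-values therefore reflect array-to-array spread only. Each bulge array was paired with the total keratinocyte array of its genotype and set.

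Bulge stem cells rest through most of the hair cycle, held there by BMP signals and by inhibitors of Wnt signalling, and divide briefly when a new hair begins to grow. Their identity rests on transcription factors such as SOX9, LHX2, NFATC1 and TCF7L1 (TCF3). A total keratinocyte fraction mixes interfollicular epidermis, in which basal cells divide and suprabasal cells build the barrier, with the upper follicle, sebaceous gland and lower follicle. As the whole YFP-positive population it also holds bulge cells, so a part is set here against a whole that contains it. In such bulk samples, fewer cells of a type and less RNA per cell cannot be told apart.

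Signal is given as log2 of the deposited MAS5 intensity, and differences are bulge minus total keratinocytes on that scale, so that 1 is a 2-fold change. Per-array values follow the order cKO set 1, cKO set 2, Het set 1, Het set 2 within each fraction. A gene "rose" or "fell" where limma gave an adjusted p below 0.05. Of 18193 genes measured, 12377 passed the filter on dim signal and were tested. The arrays differed in median signal from 79.8 to 109 for bulge and from 65.7 to 81.4 for total keratinocytes. One total keratinocyte array stood apart, since the 7 milk protein genes summed to a signal of 30940 on the cKO set 1 array and to between 158.4 and 189.8 on the other 3, against 177.5 to 368.4 on the bulge arrays. The Het set 2 array of total keratinocytes also carried more mitotic signal than the other 3, with a sum of 33720 over 19 genes against 11200 to 13340. Correlations of log2 signal over genes were 0.926 to 0.956 between bulge arrays, 0.862 to 0.92 between a bulge and a total keratinocyte array, and 0.953 to 0.977 between total keratinocyte arrays.

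Bulge cells differed from total keratinocytes in 3224 genes, which is 26% of those tested. Of these, 1809 rose in bulge cells, 14.6% of the genes tested, and 1415 fell, 11.4%. The largest differences lay on the side of the rises, with 397 genes rising and 126 falling at least 4-fold, and 83 rising and 5 falling at least 8-fold. The 4 bulge arrays lay wholly above the 4 total keratinocyte arrays for 1518 of the risen genes and wholly below them for 1133 of the fallen ones. The median difference over all genes tested was 0.04. When each array was instead centred on its median, that median moved to -0.29 and the split became 1053 risen against 2767 fallen, so 27.6% of the calls were rises in place of 56.1%. Directions of gene groups with small differences are therefore relative to the scaling. In a fit with no pairs 1748 genes rose and 1297 fell with all 8 arrays, and 1460 rose and 984 fell without the cKO set 1 array of total keratinocytes.

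The sort and the markers named for the bulge matched the labels. Cd34, the surface protein used in the sort, gave 14.42, 14.5, 14.6 and 14.79 in bulge cells, against 10.83, 10.03, 11.3 and 10.67 in total keratinocytes. P-cadherin, the other sort marker, is the product of Cdh3, which gave 8.31, 8.02, 8.6 and 9.1 in bulge cells, against 9.33, 9.54, 9.33 and 10.07 in the total fraction. The differences were 3.87 for Cd34 and -1.06 for Cdh3. Since the cells were gated on both proteins, these values describe the sort and are not read as findings. Krt24, a keratin of the bulge outer layer, was not a sort marker, and gave 13.04, 13.61, 12.89 and 14.51 in bulge cells, against 9.21, 8.96, 9.76 and 9.72 in total keratinocytes. The groups did not overlap, and the difference was 4.1 (SE 0.25). Fgf18, a growth factor that holds the follicle in telogen, gave 11.57, 12.28, 12.32 and 11.48 in bulge cells, against 7.67, 6.48, 8.55 and 7.49, the largest rise among genes with the same sign in all 4 pairs (4.37, SE 0.30). Krt24 and Fgf18 were given as the markers of the bulge, and their values are given as a description. Krt15, also a bulge keratin but one that basal epidermis expresses as well, was near the top of the scale in both fractions and rose by 0.81 (adjusted p = 0.0009416), with 16.25 ± 0.17 in bulge cells and 15.44 ± 0.16 in total keratinocytes (SD, n = 4 each). Tgfbr2 gave 12.09 ± 0.23 in bulge cells and 11.88 ± 0.18 in total keratinocytes (SD, n = 4 each) and did not pass the test (0.21, adjusted p = 0.3251). It cannot check the genotype labels, because the sources used here do not place its probes relative to the deleted part.

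**Figure D1:**
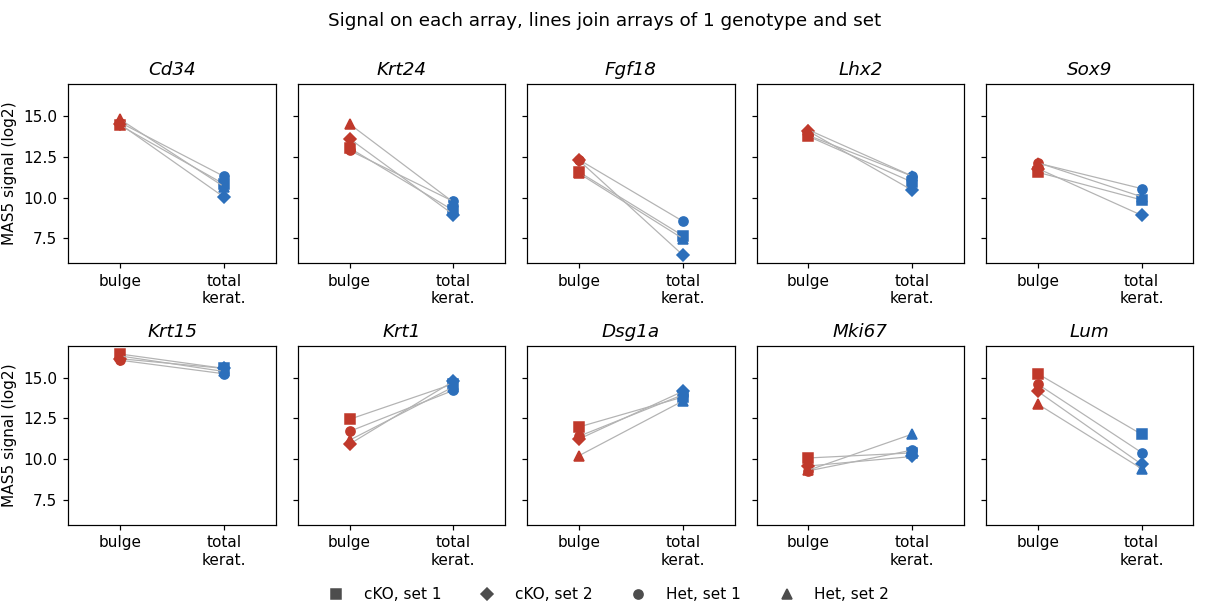
Log2 MAS5 signal of 10 genes on each bulge array (left, red) and total keratinocyte array (right, blue), where symbols give genotype and set and lines join the arrays of a pair. Krt24, Fgf18, Lhx2, Sox9 and Lum lie higher on all 4 bulge arrays, and Krt1 and Dsg1a lie lower.

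Nearly all of the transcription factors known for bulge identity were higher in bulge cells. Of 12 measured and tested, 11 rose and none fell, with a median difference of 1.43 against 0.04 over all genes tested. Lhx2, a LIM homeobox factor needed to keep stem cells at rest, gave 13.75, 14.07, 13.81 and 14.15 in bulge cells, against 10.95, 10.45, 11.31 and 11.32 in total keratinocytes. These values did not overlap and Lhx2 had the highest difference of the list (2.94, SE 0.19, adjusted p = 4.804e-06). Tbx1, a T-box factor, rose by 2.67 (adjusted p = 8.519e-06). Sox9, which marks the earliest follicle stem cells, rose by 2.05 (adjusted p = 8.721e-05), and Nfatc1, which restrains their division downstream of BMP, by 1.88 (adjusted p = 6.229e-05). Foxc1, Tcf7l1, Foxp1 and Hopx, factors with roles in stem cell rest or identity, rose by 1.68, 1.58, 1.27 and 1.27. Runx1, a factor linked to the start of anagen, gave 0.57 and did not pass.

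Of 11 surface and structural markers of the bulge 10 rose, none fell and the median was 1.77. The 10 include Cd34, used in the sort, and Krt24, a marker given for the bulge. Cd200, an immunoregulatory surface glycoprotein, gave 12.43, 12.7, 12.94 and 13.1 in bulge cells, against 11.05, 10.12, 11.4 and 11.01 in total keratinocytes, and rose by 1.90 (adjusted p = 9.404e-05). Lgr5, the R-spondin receptor of cycling follicle stem cells, rose by 1.59 (adjusted p = 0.0004672). The calcium-binding proteins S100a4 and S100a6 rose by 2.75 and 1.77. Npnt, which encodes nephronectin, a basement membrane ligand for the arrector muscle, gave 0.20 and did not pass.

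Secreted signals of the bulge made up the list with the highest median among these 3, with 8 of 10 tested genes risen, none fallen and a median of 2.88. The 8 include Fgf18, a marker given for the bulge. Bmp6, a ligand that keeps stem cells quiescent, gave 8.4, 9.04, 9.05 and 8.75 in bulge cells, against 4.34 (the floor), 4.93, 5.87 and 6.14 in total keratinocytes. The groups were far apart, and since 1 array sat at the floor the difference of 3.49 (adjusted p = 4.975e-05) is a lower bound. Dkk3 and Sfrp1, secreted proteins of families that modulate Wnt signalling, rose by 3.16 (adjusted p = 1.628e-05) and 2.51 (adjusted p = 7.753e-06). Ltbp2 and Ltbp1, which belong to the latent TGF-beta binding protein family, rose by 3.27 and 2.33. Igfbp5, which binds insulin-like growth factors, rose by 2.92 and Fgf1 by 2.84. Wif1, a Wnt inhibitor, and Tgfb2, a TGF-beta ligand, gave 0.20 and 0.36 and did not pass. In a fit with no pairs the counts of risen genes for the 3 lists were 11, 9 and 8, both with all 8 arrays and without the cKO set 1 array of total keratinocytes.

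Among the 15 largest rises were genes of enzymes, channels, receptors and keratins. Chat, choline acetyltransferase, which makes acetylcholine, gave 10.17, 10.92, 9.6 and 9.19 in bulge cells, against 5.78, 4.85, 7.03 and 5.13 in total keratinocytes (difference 4.28, SE 0.44, adjusted p = 7.823e-05). Every bulge array lay above every total keratinocyte array, and both cKO bulge arrays lay above both Het ones. Angptl7, an angiopoietin-like secreted protein, had the same order, with 12.46, 13.12, 11.98 and 11.85 in bulge cells, against 7.85, 6.87, 9.05 and 8.76 (difference 4.22, adjusted p = 8.363e-05). Slc22a22, an organic anion transporter, was at the floor on 2 of the 4 total keratinocyte arrays, so its difference of 4.19 is a lower bound. C1ql3, a secreted C1q-like protein, was likewise at the floor on 2 total keratinocyte arrays, and its difference of 3.85 is a lower bound too.

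Ppp1r3c, which targets protein phosphatase 1 to glycogen, was even across bulge arrays at 11.9, 12.04, 11.92 and 12.52, against 7.83, 7.3, 8.06 and 8.82 in total keratinocytes (difference 4.09, SE 0.20, adjusted p = 2.411e-06). Kcnma1, the large-conductance calcium-activated potassium channel, rose by 3.98 (adjusted p = 8.519e-06) and varied little among bulge arrays, at 10.08 ± 0.14 in bulge cells and 6.10 ± 0.64 in total keratinocytes (SD, n = 4 each). Il31ra, a subunit of the receptor for the itch cytokine interleukin 31, rose by 3.76 (adjusted p = 8.727e-05), with 12.84, 13.32, 12.55 and 12.52 in bulge cells, against 9.47, 7.8, 10.36 and 8.56 in total keratinocytes. Krt6a, a keratin of the inner bulge and companion layers that is also induced in wounds, gave 13.84, 14.67, 13.94 and 14.46 in bulge cells, against 9.79, 10.02, 10.86 and 10.53 (difference 3.93, adjusted p = 2.784e-06). Krt16 and Krt17, keratins often induced beside it, gave -0.44 and -0.05 and did not pass, while Krt75, a companion layer keratin, rose by 1.58 (adjusted p = 0.04191) with overlapping groups. Wfdc3, a WAP-domain protein, rose by 3.78 and Igdcc4, an immunoglobulin-superfamily membrane protein, by 3.69.

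**Figure D2:**
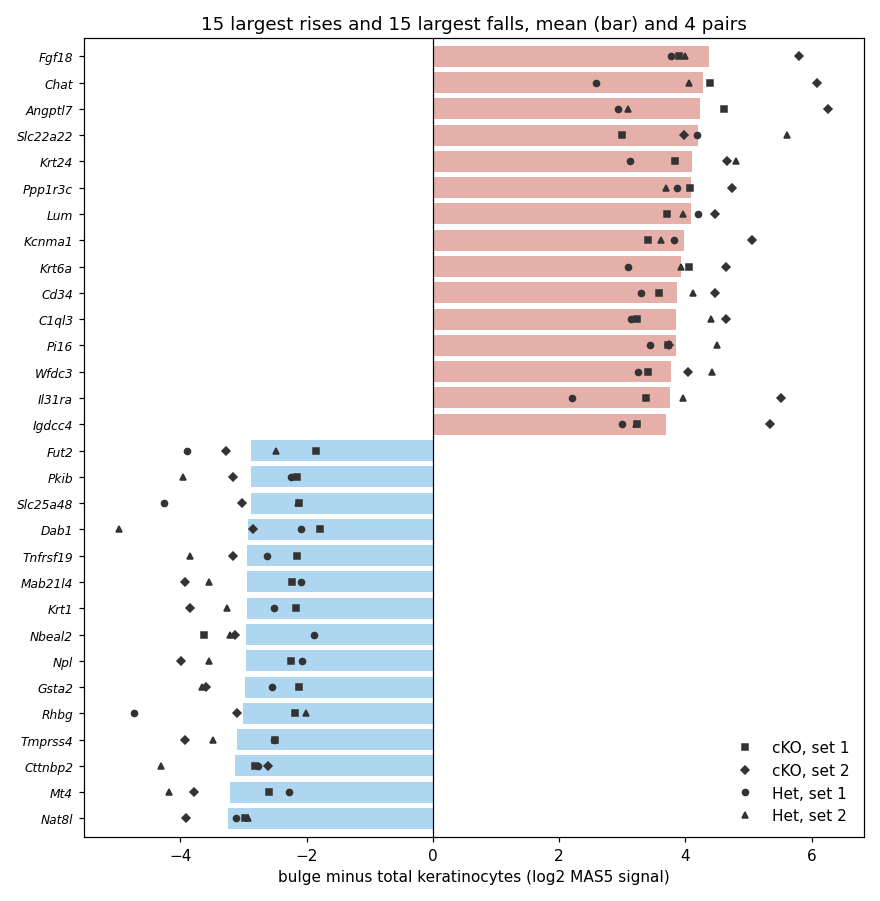
Difference in log2 MAS5 signal, bulge minus total keratinocytes, for the 15 largest rises (upper) and 15 largest falls (lower) among genes with the same sign in all 4 pairs, with bars for the mean and symbols for each pair. Fgf18 has the longest bar upward at 4.37 and Nat8l the longest downward at -3.23.

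Lum and Pi16, 2 of the 15 largest rises, are genes of dermal fibroblasts. Lum, which encodes the collagen-binding proteoglycan lumican, gave 15.24, 14.16, 14.6 and 13.38 in bulge cells, against 11.53, 9.69, 10.41 and 9.42 in total keratinocytes. Its difference was 4.08 (SE 0.16, adjusted p = 1.335e-06). Of 12 fibroblast markers 11 rose and none fell, with a median of 2.59, among them Col6a1 (3.16), Mfap5 (3.14) and Col1a1 (2.88). Their summed signal ranged from 151800 to 319900 on the bulge arrays and from 22640 to 54760 on the total keratinocyte arrays, and none was at the floor on any array. Thy1, a surface antigen of many fibroblasts, gave 0.31 and did not pass. The 3 bulge lists and the fibroblast list share no gene, which does not make the bulge lists free of fibroblast RNA. For example, Postn (2.81), the matrix protein periostin, and Igfbp5 are expressed by fibroblasts as well as by follicle stem cells. The other members of the bulge lists were not examined for expression in fibroblasts. Among bulge arrays the summed fibroblast signal was 319900, 171500, 179600 and 151800, highest on cKO set 1 and lowest on Het set 2. Among single genes, Krt24 and Cd34 had their highest bulge value on Het set 2 and Fgf18, Chat, Angptl7, Kcnma1 and Igdcc4 their lowest. Summed signals of the bulge transcription factor, surface and secreted lists were all highest on Het set 2 (93820, 377800 and 35240). Mean log2 signal was also highest there for the transcription factor and surface lists (12.13 and 14.13). For the secreted list the mean was highest on Het set 1 (11.19). What part fibroblast RNA had in other differences between the fractions was not tested.

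Other marker lists held fewer calls. Of 7 endothelial genes tested, 4 rose and none fell (median 1.31), and the summed signal of the 9 measured was low, at 746.9 to 1504 in bulge arrays and 326.8 to 768.5 in total keratinocyte arrays, with the defining gene Pecam1 at the floor on 3 arrays of each fraction. None of the 12 leukocyte genes passed, with sums of 8705 to 26910 on bulge arrays and 9866 to 26700 on total keratinocyte arrays. Of 8 genes of Langerhans cells and epidermal T cells 1 rose and 1 fell. The fallen gene was Cd207, langerin, which defines Langerhans cells (-1.46, adjusted p = 0.00356, with overlapping groups). The risen one was Mfge8 (1.84), which is not limited to Langerhans cells. Of 8 melanocyte genes Mitf alone rose (2.56), while Dct, Tyrp1, Pmel and Mlana lay between -0.35 and -0.08 and did not pass. The melanocyte genes summed to 7326 to 9544 in bulge arrays and 1858 to 4614 in total keratinocyte arrays. Their mean log2 signal overlapped, at 7.168 to 7.832 in bulge arrays and 6.785 to 7.904 in total keratinocyte arrays. The median difference of the tested melanocyte genes was -0.09. Of 5 dermal papilla genes 3 rose and 1 fell (median 1.64). The highest was Hhip (2.88), which the Hedgehog list also holds, and the lowest was Rspo3 (-2.50). None of the 4 muscle genes tested passed, no erythroid gene was bright enough to be tested, and of 16 dissociation stress genes Ier3 alone rose (1.41) and none fell. The pairs differed widely in the stress list, with medians of -0.38 in cKO set 1, -2.90 in cKO set 2, -0.51 in Het set 1 and 1.48 in Het set 2. The 17 measured stress genes summed to 95290, 69590, 101200 and 214000 on the bulge arrays, against 119400, 261700, 124400 and 85700 on the total keratinocyte arrays, so Het set 2 was the highest bulge array and cKO set 2 the highest total keratinocyte array. The part of these cells, or of stress genes, in the differences was not tested.

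**Figure D3:**
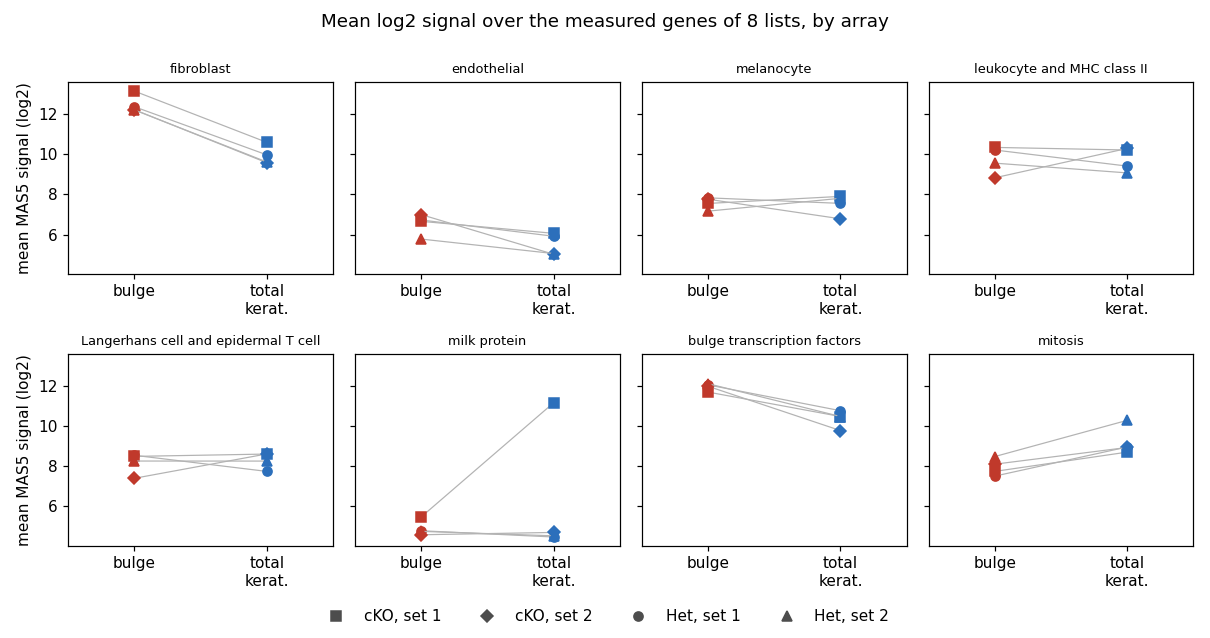
Mean log2 MAS5 signal over the measured genes of 8 marker lists on each bulge array (left, red) and total keratinocyte array (right, blue), with lines joining pairs. Fibroblast genes lie higher on all 4 bulge arrays, leukocyte genes do not separate, and milk protein genes are high on the cKO set 1 array of total keratinocytes, with a mean of 11.18.

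Genes of the differentiating epidermis were lower in bulge cells. Krt1, the keratin of the first suprabasal layers, gave 12.45, 10.93, 11.71 and 11.17 in bulge cells, against 14.62, 14.78, 14.22 and 14.43 in total keratinocytes. The groups did not overlap and Krt1 fell by 2.95 (SE 0.24, adjusted p = 1.936e-05). Of 21 differentiation genes tested 12 fell and 2 rose, with a median of -1.15. Falls included Krt2 (-2.86, at the floor on 1 bulge array), the desmosomal cadherins Dsg1a (-2.66) and Dsc1 (-1.88), and the cornified envelope precursor Sprr1a (-1.94). The risen 2 were Dmkn (0.77) and Sbsn (0.53), secreted products of suprabasal keratinocytes, and both lost their call when arrays were centred on their median. For Sbsn a further probe set gave 0.50 and a dimmer one -0.38. In a fit with no pairs 11 of the 21 fell with all 8 arrays and 9 without the cKO set 1 array of total keratinocytes.

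Enzymes of barrier lipids fell in 7 of 12 cases and rose in none (median -0.98). Among them, Acer1, an alkaline ceramidase, fell by 2.61 (adjusted p = 0.0001973), and Cers3, the ceramide synthase of very long acyl chains, by 1.45 (adjusted p = 0.0002487). Of 15 kallikreins and epidermal proteases 10 fell and 1 rose (median -0.86). Klk11, a kallikrein, fell by 1.89 (adjusted p = 0.0001074) and Tmprss4, a membrane serine protease, by 3.11 (adjusted p = 1.81e-05), whereas Prss8, prostasin, rose by 0.90 (adjusted p = 0.006886). Connexins and tight junction genes gave no rise and 9 falls among 12 (median -0.77), including Cldn4 (-2.06) and the connexin Gjb6 (-1.90). This count dropped to 4 falls without the cKO set 1 pair.

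The upper follicle also lay on the side of total keratinocytes. Of 9 genes of the infundibulum and isthmus 5 fell and none rose (median -0.79). Among the fallen were Krt79, the keratin of the infundibulum and gland duct (-2.06), and Lgr6, a stem cell marker of the isthmus (-0.98, with overlapping groups). Sebaceous gland genes did not separate as a group, with 2 of 12 risen, 1 fallen and a median of 0.06, which turned to -0.27 when arrays were centred on their median. Basal keratinocyte genes did not separate either. Krt5 (0.34) and Krt14 (0.03) did not pass. Of 11 genes Dst, a hemidesmosome linker, rose (0.68, with overlapping groups) and Itga6, the alpha 6 integrin, fell (-0.77). Of the other probe sets of Dst the brightest gave -0.13, and the dimmer ones gave 1.07 and 0.62.

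Gene products with the largest falls included several with no place in the lists. Nat8l, which makes N-acetylaspartate, gave 7.43, 6.73, 7.48 and 6.87 in bulge cells, against 10.41, 10.64, 10.6 and 9.8 in total keratinocytes (-3.23, SE 0.22, adjusted p = 7.035e-06). Mt4, the metallothionein of stratified epithelia, gave 10.97, 10.42, 11.13 and 9.94 in bulge cells, against 13.57, 14.21, 13.41 and 14.12 (-3.21, adjusted p = 2.851e-05). Neither gene's groups overlapped. Cttnbp2, a cortactin-binding protein, fell by 3.13, Rhbg, an ammonium transporter, by 3.01, and Npl, which degrades sialic acid, by 2.96. A further, dimmer probe set of Cttnbp2 gave -0.15. Nbeal2 (-2.96) and Dab1 (-2.92) were each at the floor on 1 bulge array, so these values are bounds.

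The genes of the hair germ and early anagen were lower in bulge cells. Of 10 tested 6 fell and none rose, with a median of -1.24, though Cdh3, used in the sort, is among the 6. Tnfrsf19 (Troy), a receptor of the tumour necrosis factor family, gave 11, 9.61, 10.34 and 9.16 in bulge cells, against 13.15, 12.78, 12.96 and 12.99 in total keratinocytes, and fell by 2.94 (SE 0.24, adjusted p = 1.936e-05). The transcription factors Ovol1 and Msx2 fell by 1.71 and 1.26. Shh, the Hedgehog ligand of the growing follicle, gave -1.99 and did not pass. Of 14 hair shaft and inner root sheath genes 4 fell and none rose, but the pair medians were -0.03 in cKO set 1, 0.03 in cKO set 2, 0.17 in Het set 1 and -3.41 in Het set 2. Krt33a, a hair keratin that fell (-2.58, adjusted p = 0.03503), gave 4.34 (the floor), 5.55, 6.04 and 5.05 in bulge cells, against 6.96, 7.17, 5.89 and 11.27 in total keratinocytes. Its pair differences were -2.62, -1.63, 0.15 and -6.22, and the groups overlapped.

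Proliferation genes were lower in bulge cells as a block. Of 19 mitosis genes 18 fell and none rose (median -1.25). Ube2c, the ubiquitin-conjugating enzyme of the anaphase-promoting complex, gave 8.05, 8.87, 8.37 and 9.54 in bulge cells, against 9.67, 10.35, 9.94 and 11.89 in total keratinocytes. These ranges did not overlap, and Ube2c fell by 1.76 (SE 0.20, adjusted p = 0.0001185). The mitotic kinases Aurkb and Bub1 fell by 1.82 and 1.54, and Mki67, the common proliferation marker, fell by 1.09 (adjusted p = 0.01431). The Het set 2 pair, the labels' activated stem cells, had the largest list difference, with pair medians of -0.99 in cKO set 1, -0.77 in cKO set 2, -1.41 in Het set 1 and -1.85 in Het set 2. Its bulge array was the highest of the 4 for mitosis genes (mean log2 signal 8.49, against 7.51 to 8.11), and so was its total keratinocyte array (10.3, against 8.71 to 8.97).

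Replication genes followed, with 15 of 22 fallen, none risen and a median of -0.79. The helicase subunits Mcm3 and Mcm5 fell by 1.59 and 1.55 (adjusted p = 0.0001122 and 0.0001886). Of 16 genes of the G1 phase and of growth arrest 7 fell and 3 rose. The D-type cyclins Ccnd1 and Ccnd2 fell by 1.12 and 1.25 and their partner kinase Cdk6 by 1.00. CDK inhibitors went both ways, since Cdkn1c (p57) rose by 1.83 (adjusted p = 0.0003677) and Cdkn1a (p21) fell by 1.80 (adjusted p = 6.654e-05). Ribosome biogenesis genes fell in 13 of 20 cases and rose in none (median -0.62), which became 2 of 20 without the cKO set 1 pair.

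BMP signalling genes rose both among antagonists and among targets. The pathway's ligands, receptors and antagonists gave 6 rises and 3 falls among 17 (median 0.41). Besides Bmp6 and the pseudoreceptor Bambi (1.28), the extracellular antagonists Grem1 (2.80, adjusted p = 8.522e-06), Fst (1.66) and Nbl1 (1.54) and the follistatin-like Fstl1 (2.49) rose. The ligands Bmp4 (-1.16) and Bmp7 (-0.67) and the receptor Bmpr1b, which was at the floor on 2 bulge arrays, fell. Groups overlapped for Bambi and Bmp7, and Bambi gave -0.10 in the Het set 2 pair. Of 10 response genes 6 rose and 2 fell (median 1.29). Id2, an inhibitor of helix-loop-helix factors and a direct BMP target, gave 13.99, 14.14, 14.14 and 14.28 in bulge cells, against 11.23, 11.61, 11.68 and 11.71 in total keratinocytes. The groups lay far apart, and Id2 rose by 2.58 (adjusted p = 2.483e-06). Id4, Id3 and Id1 rose by 1.58, 1.39 and 1.18, Id1 with overlapping groups, and the inhibitory Smad6 by 2.09. Dimmer probe sets of Id4 gave 0.37 and 0.82. Gata3, which the same list holds and which specifies the inner root sheath, fell by 2.12.

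Most TGF-beta ligands, receptors and Smads did not pass. The largest rises among them were Ltbp2 and Ltbp1, of the latent TGF-beta binding protein family. Of 21 ligands, receptors and Smads 6 rose and none fell, and the median of 0.26 turned to -0.07 when arrays were centred on their median, which gave 2 rises. The 6 were Ltbp2, Ltbp1, Ltbp3 (0.90), the co-receptor Eng (1.07), the repressor Tgif1 (0.61) and the type I receptor Tgfbr1 (0.51). Smad2, Smad3 and Smad4, which carry the signal to the nucleus, gave -0.25, -0.08 and -0.08 and did not pass. Of 16 response genes 4 rose, 3 fell and 9 did not pass. Their differences ran from -1.80 to 3.27, with a median of 0.44, so the list had no shared direction. Ccn2, the matricellular protein CTGF, gave 15.61, 15.27, 15.81 and 16.03 in bulge cells, against 12.89, 10.65, 13.97 and 12.68 in total keratinocytes, and rose by 3.13 (adjusted p = 9.888e-05).

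Wnt ligands and their Frizzled receptors went in opposite directions. Of 11 Wnt ligand genes tested 8 fell and none rose in bulge cells, with a median of -1.32, while of 10 Frizzled genes 7 rose and 1 fell, with a median of 1.44. These 2 families, taken by symbol, were chosen after the values were seen. Wnt3 gave 6.75, 5.09, 6.34 and 6.19 in bulge cells, against 8.51, 9.06, 8.5 and 8.89 in total keratinocytes, and had the largest fall of the ligands (-2.65, SE 0.36, adjusted p = 0.0003816). Fzd2 gave 11.18, 10.87, 11.62 and 12.39 in bulge cells, against 9.12, 8.83, 9.48 and 9.44, and had the largest rise of the receptors (2.30, SE 0.19, adjusted p = 2.379e-05). In neither gene did the groups overlap. Fzd3 and Fzd1 rose by 2.11 and 1.74, and Fzd10 fell by 2.78 (adjusted p = 3.099e-05). Fzd5 rose by 1.02, but a second, dimmer probe set for it gave -0.48. In the list of 24 Wnt ligands and receptors 6 rose and 9 fell. In a fit with no pairs these counts were 6 and 9 with all 8 arrays, and 6 and 8 without the cKO set 1 array of total keratinocytes. Fzd1, Fzd2 and other receptors are expressed by fibroblasts too, whose markers rose in the same arrays.

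**Figure D4:**
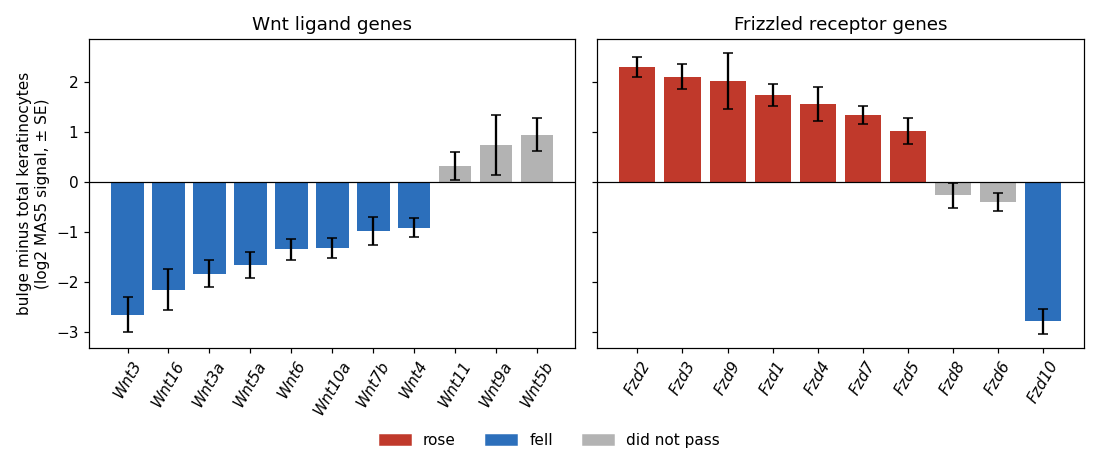
Difference in log2 MAS5 signal, bulge minus total keratinocytes, with the fit's SE, for every tested Wnt ligand gene (left) and Frizzled receptor gene (right). Wnt3 to Wnt4 fell, Fzd2 to Fzd5 rose and Fzd10 fell, and grey bars did not pass the test.

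Among 15 Wnt antagonists 3 rose and 3 fell, 20% each, against 14.6% risen and 11.4% fallen among all genes tested. The risen ones were Dkk3, Sfrp1 and Sfrp4 (2.35) and the fallen ones Tle3 (-1.41), Apcdd1 (-0.91) and Kremen1 (-0.77). The median of the 15, 0.37, became -0.04 when arrays were centred on their median. Of 12 Wnt response genes 6 fell and 2 rose (median -0.82). Axin2, a common readout of beta-catenin activity, gave 9.84, 9.34, 9.45 and 9.58 in bulge cells, against 10.51, 10.22, 10.76 and 10.14 in total keratinocytes, and fell by 0.86 (adjusted p = 0.005685). The feedback ubiquitin ligases Rnf43 and Znrf3 fell by 1.12 and 0.93, whereas Lgr5, which the list also holds, rose.

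Hedgehog genes rose at the level of co-receptors and transcription factors. Of 13 tested 8 rose and none fell, with a median of 0.97. Hhip, a Hedgehog-binding inhibitor and target, gave 8.51, 8.18, 8.77 and 7.77 in bulge cells, against 5.13, 4.34 (the floor), 6.16 and 6.07 in total keratinocytes, and rose by 2.88 (a bound, adjusted p = 0.0003771). Hhip is also in the list of dermal papilla markers, and the part of such cells in its rise was not tested. The co-receptors Boc, Cdon and Gas1 rose by 1.51, 1.19 and 1.07, although a second, dim probe set of Gas1 gave -0.19. The factors Gli2, Gli1 and Gli3 rose by 1.37, 1.05 and 0.84, the last pair with overlapping groups. Ptch1 and Smo, the receptor and the transducer, gave 0.07 and 0.05 and did not pass.

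Notch genes fell more often, with 7 falls and 3 rises among 16 (median -0.18). The ligands Dll1 (-1.59) and Jag2 (-1.09), the receptors Notch3 (-1.20) and Notch1 (-0.87) and the targets Nrarp (-1.89, adjusted p = 2.709e-05) and Hes1 (-0.84) fell, and the ligand Jag1 (1.17, adjusted p = 0.0005422), the effector Rbpj (0.94) and Hey1 (2.01) rose. In the FGF pathway 5 of 16 rose and 4 fell. Beside Fgf18 and Fgf1, the receptor Fgfr1 (2.12) rose with Fgf7 (1.42) and Fgfr4 (2.35, a bound, since 1 total keratinocyte array was at the floor), and Fgfr3 (-0.51), Fgf13 (-1.71), the FGF target Etv5 (-1.04) and Fgfbp1 (-0.88) fell. The EGF receptor family gave 5 falls and 2 rises among 12 (median -0.56). Its ligand Epgn fell by 2.28 and the receptors Erbb3 and Erbb2 by 1.30 and 0.94, while the receptor inhibitors Errfi1 (0.71) and Lrig3 (0.59) rose. A second, dimmer probe set of Errfi1 gave -0.11.

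Guidance molecules split into members with opposite differences. Of 29 semaphorins, ephrins and receptors 9 rose and 7 fell. Sema3e gave 12.36, 13.21, 13.14 and 12.92 in bulge cells, against 9.88, 8.74, 11.07 and 9.74 in total keratinocytes, and rose by 3.05 (adjusted p = 7.944e-05), with the plexin Plxna2 at 2.22. Sema3d fell by 2.38 (adjusted p = 0.0004731). Of the Roundabout receptors Robo2 rose by 2.30 (at the floor on 2 total keratinocyte arrays) and Robo1 fell by 2.14. Among 20 basement membrane genes 5 rose and 1 fell, with Nid1 (2.11), Lama4 (1.60) and Col18a1 (1.54) highest, while 11 of 13 integrins did not pass. Cadherins and desmosomes gave 8 falls and 4 rises among 17 (median -0.44). The plakophilins Pkp1 (-1.36) and Pkp2 (1.28) had opposite signs. With arrays centred on their median the list gave 1 rise.

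Oxidative phosphorylation genes seldom passed the test, and glycolytic genes passed about as often as all genes. Of 21 oxidative phosphorylation genes 1 fell and none rose, with a median of -0.00. Of 18 glycolytic genes 3 rose and 2 fell. Of 24 glutathione and oxidative stress genes 8 rose and 4 fell. Gstt1, a glutathione transferase, gave 10.14, 9.67, 9.86 and 9.6 in bulge cells, against 7.9, 7.42, 7.96 and 7.61 in total keratinocytes, and rose by 2.09 (adjusted p = 3.111e-05), whereas Gsta2, of another class, fell by 2.98 (adjusted p = 2.542e-05). The superoxide dismutases differed in sign, as cytosolic Sod1 rose by 1.19 and mitochondrial Sod2 fell by 0.96.

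Imprinted growth genes were higher in bulge cells, with 7 of 11 risen, 1 fallen and a median of 1.83. Peg3, a zinc finger protein expressed from the paternal allele, gave 11.52, 11.53, 10.72 and 10.82 in bulge cells, against 7.57, 6.95, 8.01 and 7.58 in total keratinocytes. Its groups did not overlap, and Peg3 rose by 3.62 (SE 0.28, adjusted p = 1.235e-05). Meg3, a long noncoding RNA, rose by 3.23 (a bound, with 1 total keratinocyte array at the floor), Sgce by 2.54 and Ndn by 2.14, and Plagl1 fell by 1.23. Several of these genes are expressed in fibroblasts as well.

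Among 16 clock genes 2 rose and 5 fell. Nfil3, a repressor of the clock's output, gave 11.55, 12.12, 11.91 and 11.28 in bulge cells, against 8.27, 9.19, 8.72 and 8.58 in total keratinocytes, and rose by 3.02 (SE 0.17, adjusted p = 2.802e-06). Hlf and Rora, which act in the same circuit, fell by 1.97 and 1.08. Antigen presentation was lower, since 7 of 13 class I and processing genes fell and none rose (median -0.86). The immunoproteasome subunits Psmb8 and Psmb9 fell by 1.53 and 1.45 and the class I transactivator Nlrc5 by 1.53 (adjusted p = 0.003089, 0.0004657 and 0.0004672). In the interferon response list 1 gene rose and 2 fell among 14 (7.1% and 14.3%). Of 16 genes of retinoid metabolism 2 rose and 3 fell (12.5% and 18.8%), with Cyp26b1, which degrades retinoic acid, at 2.04 (adjusted p = 0.0006738). Among all genes tested 14.6% rose and 11.4% fell, so these counts are not read as a result about either list.

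**Figure D5:**
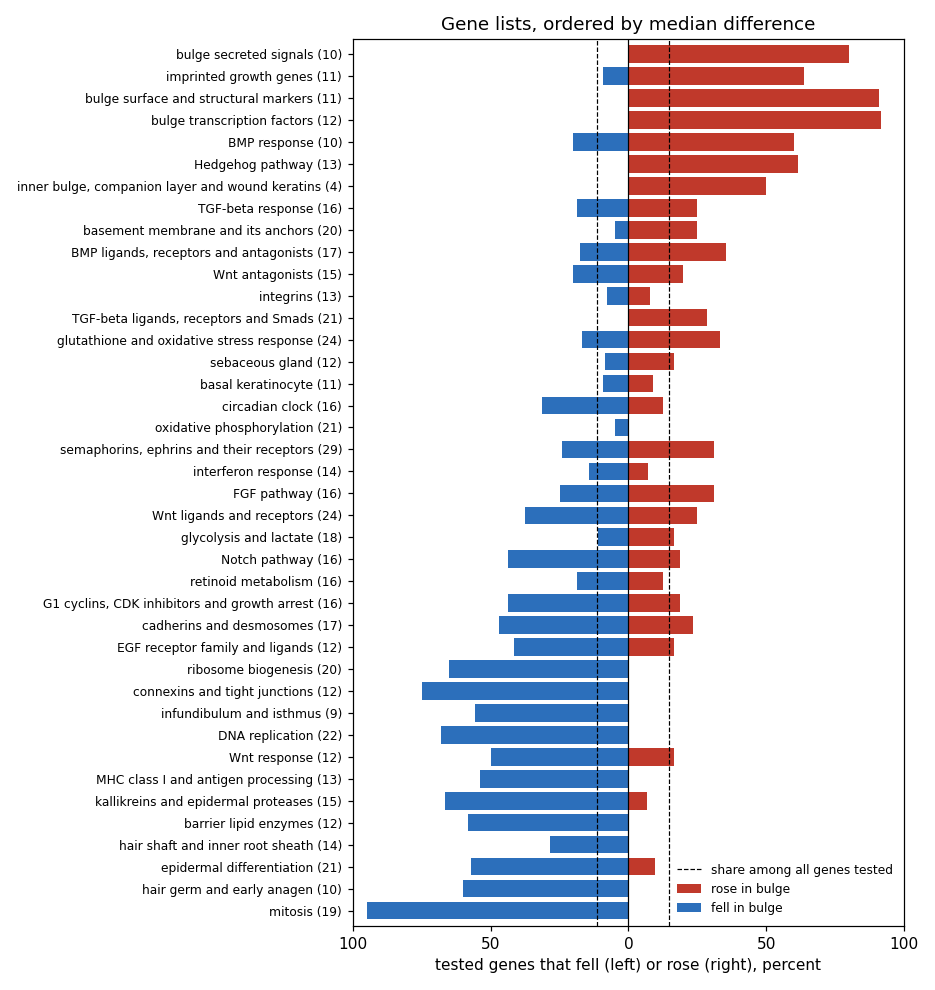
Share of the tested genes of each list that rose (right, red) or fell (left, blue) in bulge cells, in percent, with the number tested in brackets and lists ordered by their median difference. Dashed lines give the shares among all genes tested, 14.6% risen and 11.4% fallen.

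The bulge difference could be set side by side between genotypes and between sets, with 2 pairs on each side. In limma's interaction test no gene passed for cKO against Het pairs, 1405 genes had an unadjusted p below 0.05 and the smallest adjusted p was 0.1654. Neat1, a nuclear long noncoding RNA, had the smallest p, with 13.55 and 13.04 in cKO bulge cells against 11.97 and 9.93 in Het bulge cells, where total keratinocytes gave 12.16 and 10.94 in cKO and 12.18 and 11.34 in Het. Epn3, an epsin of endocytosis, was at the floor on both cKO bulge arrays, against 8.29 and 7.95 on the Het ones, with 7.6 and 7.95 in cKO and 7.62 and 7.62 in Het total keratinocytes (difference of differences -3.94, adjusted p = 0.1654). Angptl7 gave 2.42 (adjusted p = 0.2788). Between sets no gene passed either, with 448 at an unadjusted p below 0.05 and a smallest adjusted p of 0.5399. Gnmt, which methylates glycine, had the smallest p there, with bulge minus total differences lower in set 2 by 3.13 on the log2 scale. Sectm1a and Crct1, an epidermal differentiation gene, followed with set 2 minus set 1 values of -2.11 and -2.36 (adjusted p = 0.5399 for each). With a pair left out, so that 1 side held a lone pair, the genotype test called 0 to 162 genes and the set test 1 to 798, the highest counts being without Het set 1 and without Het set 2. The differences between fractions above are therefore means over genotypes and sets, and whether any of them differs between these was not resolved with 2 pairs a side.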

How the data were processed

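Arrays were Affymetrix, hybridized with biotin-labelled cRNA from 2 µg of Trizol-extracted total RNA, per the labels' protocols. The deposited values are MAS5 signal, a linear intensity per probe set, and per the submitters' processing notes the software was MAS5, of no stated version. Scaling by the authors of each array to a trimmed mean of 500 was checked in the values (2% trimmed at each end). Of 45101 probe sets 64 controls were left out, 34945 had 1 symbol, 932 several and 9160 none in the platform table. Each gene was represented by its brightest probe set, by mean log2 over these 8 arrays. Signals under 20.2, the pooled 25th percentile, were set to it before log2 (4.34, the floor), so differences against it are bounds. Genes were tested if above the pooled median, 83, on at least 2 arrays.

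Bulge and total keratinocytes were compared with limma 3.58.1 in R 4.3.3 (lmFit, eBayes with trend), two-sided, with the genotype and set as a block of 4 pairs and Benjamini-Hochberg adjustment over all tested genes, threshold 0.05. The pairing comes from the labels' genotype and set. Deviations of paired arrays from their group means correlated at 0.27, -0.17, 0.19 and 0.23. Genotype and set effects on the difference were interaction terms. The number of arrays limits the precision. The procedure was tested on simulated data.

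The arrays, 52 gene lists (731 of 775 genes measured) and the tests were chosen with earlier results of these data known, so the counts are descriptions. Named were the sort markers, Krt24, Fgf18 and Tgfbr2, the 15 largest rises and falls among called genes whose 4 pairs shared a sign, the leading interaction genes and up to 4 called members of a list in each direction (8 in bulge, epidermal and signalling lists); further members named, and the Wnt, Frizzled, potassium channel, interleukin receptor and collagen families, were chosen after their values were seen. Alternatives covered scaling, floor, filter, probe choice, block, trend, a 2-fold minimum and left-out pairs or arrays.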

Additional observations from a re-analysis of the deposited data

Results flagged for a closer look

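Among 114 groups of 4 arrays (the mean log2 signal of each of 52 lists, and the signal of Cd34, Cdh3, Krt24, Fgf18 and Tgfbr2, in each fraction), 6 held an array whose gap to its neighbour exceeded Dixon's critical share of the group's range. Chance gives about 1 in 20, and the 4 arrays of a fraction differ in genotype and set. The Het set 2 bulge array was high for bulge surface markers (14.13), low for sebaceous gland genes (9.41) and high for oxidative phosphorylation (13.39). The cKO set 1 bulge array was high for fibroblast genes (13.16). In total keratinocytes the Het set 2 array was high for mitosis genes (10.3) and the cKO set 1 array for milk protein genes (11.18).

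For 6 lists the pairs of one genotype or set had median differences of one sign and the other pairs of the opposite sign. None of these contrasts was tested. The integrin list was higher in bulge cells in set 2 pairs and lower in set 1 pairs, 0.48 apart. In cKO pairs, set against Het pairs, the median difference was lower for semaphorins, ephrins and their receptors (-0.24), oxidative phosphorylation (-0.31), leukocyte genes (-1.43) and Langerhans and T cell genes (-1.92), and higher for interferon response genes (0.69).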

How the results depend on the processing

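The main fit called 1809 risen and 1415 fallen genes of 12377. Without the replicate block the counts were 1748 and 1297, with the pairing as additive terms 1967 and 1522. Centring arrays on their median gave 1053 and 2767, testing all 18193 genes 935 and 639 (1574 in all), the filter at the pooled 75th percentile 1188 and 1169, and a 2-fold minimum 1166 and 714 (1880 in all). Leaving out each pair in turn gave 2038 to 3109 calls, with 1176 to 1726 rises and 862 to 1383 falls; the lowest of each was without cKO set 1. The set 2 pairs alone, an alternative added after seeing the data, gave 954 and 744 (1698 in all). The genotype interaction, with no calls, gave 0 to 162 with a pair left out (162 without Het set 1), and the set interaction, also with none, gave calls whichever pair was left out, 1 to 798 (798 without Het set 2, 313 without cKO set 2), where 1 side holds a lone pair assumed to vary like the others; centring gave 14 for sets. Of 255 named genes past the threshold 122 kept their call under every alternative run. Dsp turned to -0.18 under quantile normalization and -0.28 with the mean of its probe sets, Notch2 to 0.64 with that mean, and Gnmt to -1.14 in the set 2 pairs; the cause was not tested. Of 218 other probe sets of named genes 19 had the opposite sign.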

Other observations

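Further gene families were picked by symbol after their values were seen, and the collagen family shares members with the lists. Of 29 potassium channel genes tested 8 rose in bulge cells, 4 fell and 17 did not pass (median 0.28). Among all genes tested 14.6% rose and 11.4% fell. Beside Kcnma1 (3.98), the rises were led by the leak channels Kcnk2 (3.27, adjusted p = 2.411e-06) and Kcnk10 (2.61) and by Kcnj8 (2.51), an inward rectifier that vascular mural cells also express, and the falls by Kcnj16 (-2.23). Of 23 interleukin receptor genes 10 fell and 1 rose (median -0.56). The fallen ones included Il6ra (-2.61, adjusted p = 3.542e-05), which binds interleukin 6, Il20ra (-2.24) and Il1r1 (-0.84), while Il31ra (3.76) rose. Of 27 collagen genes 15 rose and 2 fell (median 1.37). The highest were Col8a2 (3.21), Col6a1 (3.16), Col5a2 (2.91) and Col1a1 (2.88), of which Col6a1 and Col1a1 are in the fibroblast list.

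Of the genes that rose, 5 were at the floor on all 4 total keratinocyte arrays, and no gene that fell was at the floor on all 4 bulge arrays. A gene at the floor on all 4 arrays of a fraction could pass the filter on dim signal only through the other fraction. The direction of these 5 was therefore fixed by the filter, and their values are given as a description. Among the 5, S100g, a calcium-binding protein, was at least 3.93-fold higher in bulge cells, and Aqp5, a water channel, at least 4.31-fold higher.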
